A study of Sus scrofa with 70 samples.

Results

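Many pig genes are annotated with several isoforms, and the isoform that carried the largest share of a gene's transcripts was compared here between testis and 4 other male glands. The share of an isoform is its TPM (a transcript abundance scaled by length and to the same sum in each library) divided by the summed TPM of its gene, and the main isoform is the one with the highest mean share. Of 35552 annotated genes in the table, 16170 had 2 or more transcripts, and 4379 of these also reached 5 TPM in all 30 libraries. The main isoform of the 6 testis libraries differed from that of the 24 others in 778 of the 4379 genes (17.8%). Of these 778 genes, 730 have a symbol. The lowest and highest libraries of the groups did not overlap for 1627 of the 19041 transcripts compared (8.54%).

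The RNA-seq libraries came from boars aged 12 months of 2 breeds, the Banna mini-pig inbred line (BMI) and the Diannan small-ear pig (DSE). For each breed, 3 libraries each were available of testis, of epididymis and of the accessory glands (bulbourethral, prostate and vesicular), with no treatment in any group. A second set of 10 libraries, 1 for each breed and gland, held full-length reads from long-read sequencing (Iso-seq), with 231413 to 458697 reads each as summed over the isoforms of the deposited table. The glands were bulk tissue, so a mixture of cell types stands behind each value, and fewer cells of a type cannot be told apart from less RNA per cell. The labels do not say which libraries came from the same boar, and p-values measure only the spread between these libraries.

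Alternative promoters, alternative splicing and alternative polyadenylation let a gene make RNAs with different first exons, coding parts or ends. Male germ cells are known for isoforms of their own, for transcription from promoters that are silent in somatic tissue and for the use of early polyadenylation sites. Epithelia and smooth muscle, which make up much of the epididymis and the accessory glands, also have splice programmes of their own.

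Both sides of the exchange passed the test in 422 genes: the main isoform of testis was higher and the main isoform of the other glands was lower in testis (limma on shares, Benjamini-Hochberg adjusted p below 0.05 over these transcripts and a difference of at least 10 percentage points). These called switches were 9.64% of the genes examined. Over all transcripts fitted, the share was higher in testis for 2030 (10.7%) and lower for 1608 (8.44%). The size of a switch, the smaller of the rise and the fall, had a median of 26.2 points among the 422 genes, reached 30 points in 160 and 50 points in 30. The other 356 changed genes missed the test in at least 1 isoform. In 397 of the 778 genes the other 4 glands had 1 main isoform in common and testis had another. The strictest count required the testis main isoform to be on top in each testis library and in none of the 24 others, which held for 67 genes (1.53%), of which 63 were called switches.

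**Figure D1:**
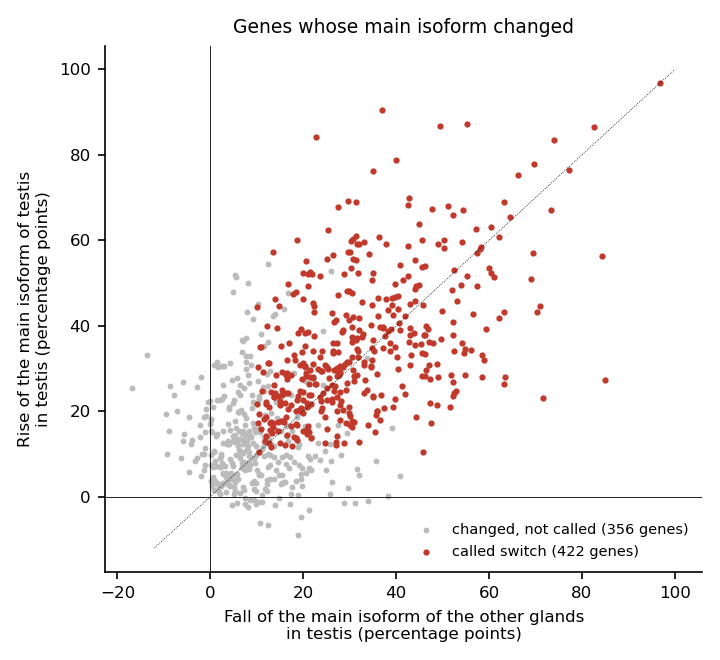
Rise of the testis main isoform against the fall of the main isoform of the other glands, in percentage points of the gene TPM, for the 778 genes with a changed main isoform (1 point a gene). The 422 called switches lie above 10 points on both axes, and CARHSP1 lies farthest out, near 97 points on both.

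By the same rule applied to each gland against the other 4, the called switches numbered 422 for testis, 60 for vesicular gland, 45 for epididymis, 37 for bulbourethral gland and 27 for prostate gland. The separated switches numbered 67 for testis and 0 or 1 for each other gland. These 5 comparisons share libraries and are given side by side only.

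DSE testis replicate 2 stood apart from the other 5 testis libraries. Its top isoform differed from the main isoform of the other 4 glands in 14.8% of the genes, against 20.1% to 22.7% in the other testis libraries. Summed markers of spermatids (8 genes such as PRM1 and TNP1) came to 25580 TPM in it and to 76543 to 117114 TPM in the others. Leydig cell markers (5 of the 6 genes have a symbol in the annotation) summed to 63514 TPM in it and to 18595 to 32398 TPM in the others, and the 6 Sertoli cell markers to 513 against 190 to 299 TPM. In genes called without it, its testis main isoform lay at a median of 53.0% of the way from the other glands to the other testis libraries, and it was the lowest testis library in 335 of 462 genes. Leaving it out raised the called switches to 462 and the separated ones to 166. The part that germ cell content had in these values was not tested. Of the other glands' libraries, 5 had a median correlation of shares under 0.9 with their own gland (BMI epididymis replicate 3, DSE epididymis replicate 1, DSE vesicular gland replicate 1, BMI prostate gland replicate 3 and DSE bulbourethral gland replicate 2). Apart from BMI epididymis replicate 3, these libraries also had the lowest transcript integrity in the study's quality table, and its part in the shares was not tested. Without these 5, 450 switches were called.

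Cell types differed between testis and the other glands along with the shares. All 8 spermatid and all 8 spermatocyte markers were found in testis, while the spermatid sum was at most 1035 TPM in epididymis and 7.17 TPM in the 3 accessory glands. The 7 epithelial markers summed to 13.5 to 44.8 TPM in testis and to 623 to 2344 TPM elsewhere, and KRT18, ELF3 and ESRP1 stayed under 1 TPM in every testis library. Smooth muscle markers summed to 141 to 290 TPM in testis and to 152 to 24660 TPM in the other glands. Leydig cell markers summed to 18595 to 63514 TPM in testis and to at most 4.01 TPM elsewhere. Sertoli cell markers summed to 190 to 513 TPM in testis and to 14.5 to 113 TPM elsewhere. For immune markers the sums were 99.6 to 180 TPM in testis and 129 to 1368 TPM elsewhere. The part of these cell types in the isoform shares was not tested.

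A different first exon was found in 8 of the 10 largest switches with a symbol and no overlap of libraries. CARHSP1 (ENSSSCG00000026710), which encodes a cold shock domain protein that binds RNA, exchanged nearly its whole output. In testis its main isoform had a share of 93.6%, 99.2% and 99.6% (lowest, median and highest) in the 6 testis libraries and of 0%, 0% and 21.4% in the 24 others. For this isoform the groups did not overlap, and the difference was 96.9 ± 2.01 points (SE, limma adjusted p = 1.15e-23). That of the other glands moved the opposite way, from a median of 100% there to 0.256% in testis (limma adjusted p = 7.4e-26). Both isoforms encode the same 441 bases and end at the same base. They differ in the first exon, which starts at chr3:33840562 on the plus strand in testis, 6154 bases downstream of the start used elsewhere (coordinates throughout are Sscrofa11.1). Gene TPM averaged 169 in testis and 19.0 in the others. In the full-length reads, 85 of 92 reads of the pair (92.4%, Wilson 95% interval 85.1 to 96.3) in testis were of the testis main isoform, and 0 of 128 elsewhere, which allows up to 2.91%.

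The 250 bases before the testis start of CARHSP1 are shown because they hold the full cAMP response element (CRE), TGACGTCA, which is in capitals and begins 158 bases before the start. The genomic stretch is chr3:33840312-33840561, plus strand, and 1 annotated transcript has an exon that reaches into it.
CARHSP1 before the testis start: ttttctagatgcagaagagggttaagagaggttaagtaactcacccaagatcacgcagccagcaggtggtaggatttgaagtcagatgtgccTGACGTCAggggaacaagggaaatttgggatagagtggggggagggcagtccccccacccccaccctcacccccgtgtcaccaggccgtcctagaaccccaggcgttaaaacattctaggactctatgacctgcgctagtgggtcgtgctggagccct

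How often this motif stands before testis starts was counted without a test. Among called switches with different first exons, TGACGTCA (its own reverse complement) stood in the 250 bases before 6 of 224 testis starts (2.68%), 4 of 224 starts of the other glands (1.79%) and 313 of 12301 starts of all fitted transcripts (2.54%). GGGCGG, searched on both strands, stood before 48.2% of the testis starts, 63.4% of the starts of the other glands and 61.2% of all starts. The median number of CG dinucleotides in the stretch was 13, 19 and 19 in these groups, and the median G and C content was 60.0%, 64.4% and 63.2%. TATAAA was found before 7.14%, 6.25% and 6.11%, and CACGTG before 9.38%, 8.48% and 9.03%. These shares are descriptions, and a match is not evidence that a factor binds.

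In energy metabolism 3 of 65 eligible genes were called (HK1, LDHA and ENO1), a share below the 9.64% of all genes. HK1 (ENSSSCG00000010253) encodes hexokinase 1, which phosphorylates glucose and is known to have a form particular to sperm. Its testis main isoform begins at chr14:72338273, plus strand, upstream of the main isoform of the other glands at chr14:72404544, with the same annotated coding part of 2340 bases. Shares of the testis main isoform were 66.1%, 75.7% and 87.3% in testis and at most 3.16% in the 24 others (difference 76.3 ± 1.79 points, limma adjusted p = 1.23e-22). In HK1 the isoform used elsewhere fell from a median of 40.2% to 1.92% (limma adjusted p = 2.3e-08), without overlap. In testis, 639 of 651 full-length reads of the pair were of the testis main isoform.

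LDHA (ENSSSCG00000013366), which encodes the A subunit of lactate dehydrogenase, used a start at chr2:40823597 on the minus strand in testis, 3118 bases downstream of the other one. There that isoform had 36.5%, 85.1% and 86.8% of the gene TPM in testis and 0%, 0.796% and 10.2% elsewhere. The lowest testis value was that of DSE replicate 2, and still lay above the 24 others (difference 75.2 ± 4.07 points, limma adjusted p = 1.38e-14). Its annotated coding part is 1086 bases long against 999, a difference of 87 bases, and 63 of its coding bases lie in the testis first exon and begin with ATG. They are at chr2:40823248-40823310, minus strand, and are shown in capitals because the other isoform has another first exon.
LDHA coding bases of the testis first exon: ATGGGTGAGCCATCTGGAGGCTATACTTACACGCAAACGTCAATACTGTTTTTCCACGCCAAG

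Whether these bases are translated was not measured. All 375 full-length reads of the pair in testis were of the testis main isoform and so were the 9 in the other glands, so that these reads did not show the exchange. ENO1, which encodes the glycolytic enzyme enolase 1, kept its first exon and coding part. Its main isoform in the other glands holds an additional exon before the coding part, whose share fell from a median of 39.9% to 11.2% in testis (limma adjusted p = 9.91e-06). Full-length reads did not show the exchange in ENO1, since 144 of 152 reads of the pair in testis and 6 of 6 elsewhere were of the testis main isoform.

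Another set among these largest switches, LDAF1, AGPAT1, ANXA4 and SEMA4B, changed the first exon and kept the coding sequence or nearly all of it. LDAF1, which encodes a protein of lipid droplet formation, moved from a median of 0% to 70.9% in testis for its testis main isoform (limma adjusted p = 3.13e-20), but 7 of 9 full-length reads of the pair in the other glands, beside 49 of 49 in testis, were of that isoform. AGPAT1, an acyltransferase of phospholipid synthesis, moved from 2.31% to 73.7% (limma adjusted p = 5.14e-14), and 54 of 66 full-length reads in testis against 2 of 188 elsewhere were of the testis main isoform. ANXA4, a calcium-dependent phospholipid-binding protein, moved from 0% to 68.8% (limma adjusted p = 1.93e-12), and all 62 full-length reads of the pair came from testis and were of its main isoform. No read was matched to the other ANXA4 isoform in any library, so the exchange itself could not be read from them. SEMA4B, a transmembrane semaphorin, moved from 0% to 88.3% (limma adjusted p = 4.52e-17), and its coding part was 2493 bases against 2508. Neither isoform of these genes overlapped between testis and the other libraries, which the rule that chose them required.

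LSM2, a core component of the Lsm ring on U6 RNA, had a testis main isoform with no annotated coding part, against 288 coding bases in the other. That isoform rose from a median of 0% to 82.3%, and in DSE testis replicate 2 it was at 49.6% (limma adjusted p = 4.34e-18). ARL1, a small GTPase of the Golgi, kept its first exon and coding part and differed in splicing before the coding part. Its testis main isoform took 96.1% to 99.2% in testis and 0% to 80.7% elsewhere (limma adjusted p = 1.68e-11), and 5 of 5 full-length reads of the pair in testis and 4 of 9 elsewhere were of it.

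**Figure D2:**
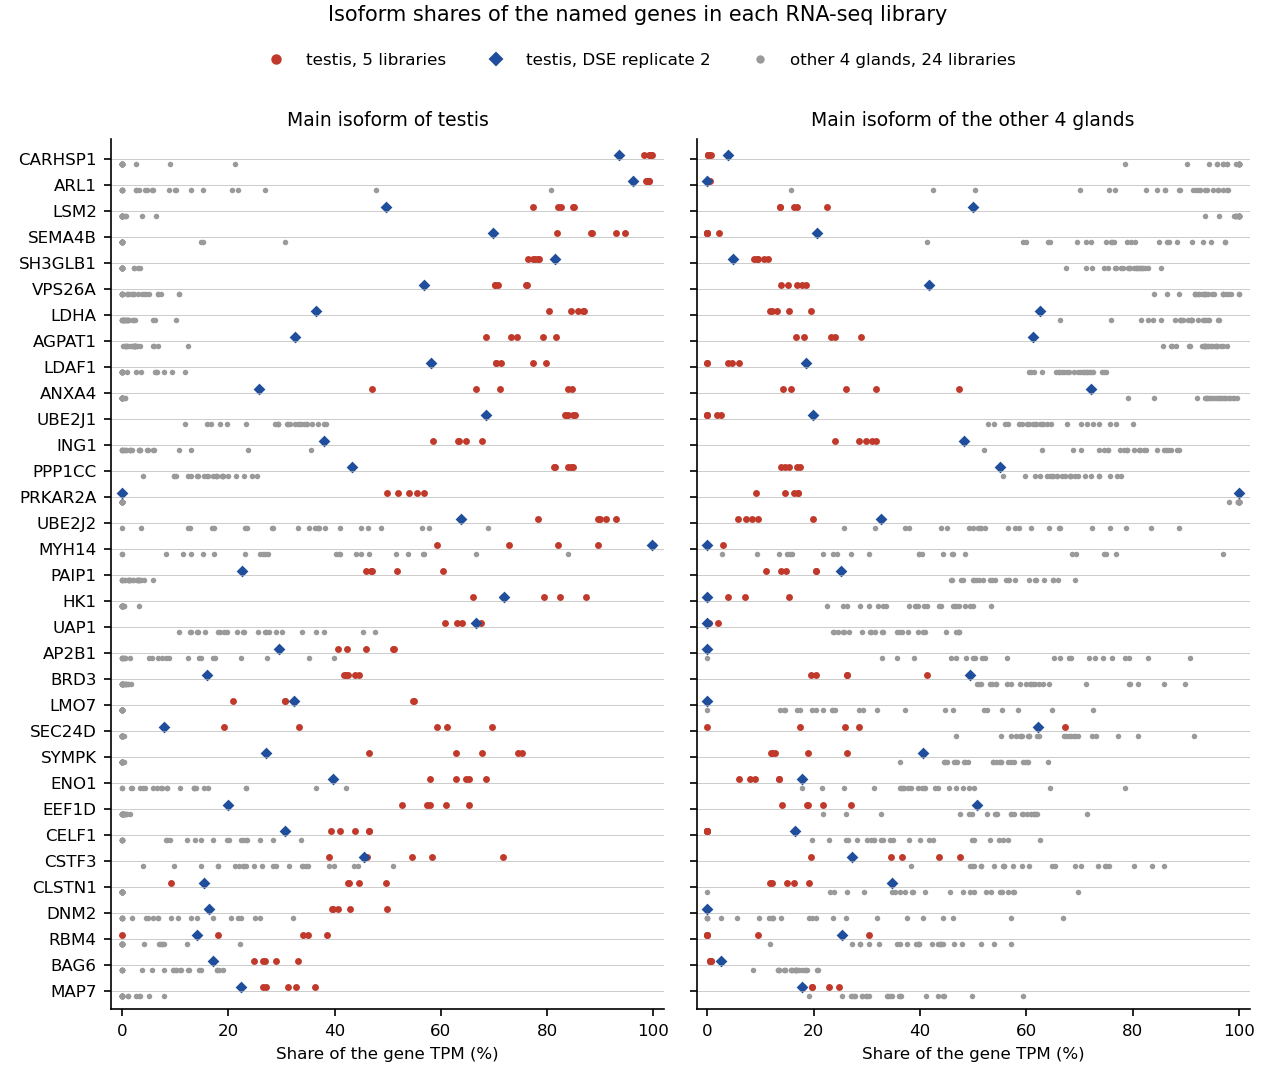
Share of the gene TPM (percent) of the testis main isoform (left) and of the main isoform of the other glands (right) in each library of the 33 named genes. The 24 libraries of the other glands (grey) and 5 testis libraries (red) do not overlap in either panel for CARHSP1, SH3GLB1 and HK1, and DSE testis replicate 2 (blue diamonds) lies between them in LDHA, AGPAT1 and PPP1CC.

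Several switches altered the end of the annotated coding part. PPP1CC (ENSSSCG00000009828) encodes the gamma catalytic subunit of protein phosphatase 1, whose gamma 2 form is known from testis and sperm. Shares of its testis main isoform were 43.3%, 82.7% and 84.8% in testis and 3.90%, 17.4% and 25.5% elsewhere, with no overlap (difference 60.1 ± 3.79 points, limma adjusted p = 3.57e-13). For its counterpart the share was at a median of 67.7% there and at 16.2% in testis (limma adjusted p = 1.04e-10). In DSE testis replicate 2 it stood at 55.0%. The testis isoform splices out an intron that the other retains, which changes the last codons and lengthens the coding part from 972 to 1014 bases. The bases after the stop codon number 323 in the testis isoform and 1239 in the other. Coding bases that only 1 of the isoforms reads are in capitals, from chr14:32070868-32070938 for testis and chr14:32071784-32071873 for the other, both on the minus strand.
PPP1CC testis main isoform, last coding bases: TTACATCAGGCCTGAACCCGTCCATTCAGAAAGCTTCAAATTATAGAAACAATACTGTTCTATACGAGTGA
PPP1CC main isoform of the other glands, last coding bases: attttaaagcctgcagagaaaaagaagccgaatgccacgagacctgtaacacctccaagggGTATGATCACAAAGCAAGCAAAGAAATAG

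In full-length reads, 279 reads in testis and 4 in the other glands were of the testis main isoform of PPP1CC, and none were matched to the other one, so the exchange itself could not be read from them.

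PRKAR2A (ENSSSCG00000011363) encodes a regulatory subunit of cAMP-dependent protein kinase. Its testis main isoform ran past a splice site and ended in the intron at chr13:31447304, before the end of the other isoform at chr13:31423903, with 696 coding bases against 1206. In the capitals at the end of the stretch chr13:31448014-31448052, minus strand, 9 intron bases bring a stop codon.
PRKAR2A testis main isoform, end of the coding part: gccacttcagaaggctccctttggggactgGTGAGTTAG

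This isoform of PRKAR2A was listed at 0% in all 24 other libraries and in DSE testis replicate 2, and it had a median of 52.9% and a maximum of 56.8% over the 6 testis libraries (difference 44.7 ± 4.35 points, limma adjusted p = 2.22e-09). The main isoform of the other glands was at 98.1% to 100% there, at 100% in DSE testis replicate 2, and at 9.06% in the lowest testis library. Full-length reads did not show the exchange: 2 of 188 reads of the pair in testis (1.06%) and 1 of 665 elsewhere (0.150%) were of the testis main isoform.

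SH3GLB1 (ENSSSCG00000006930), which encodes endophilin B1, a membrane-bending protein of mitochondria and autophagy, gained an internal exon in testis. The exon has 24 bases, keeps the frame and lengthens the coding part from 1185 to 1209 bases. It is in capitals with 20 intron bases on each side, from chr4:129372590-129372653 on the minus strand.
SH3GLB1 exon: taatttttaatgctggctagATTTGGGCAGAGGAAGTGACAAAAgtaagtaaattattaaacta

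The isoform with this exon had 76.4%, 78.0% and 81.4% of the SH3GLB1 TPM in testis, and 0%, 0% and 3.46% elsewhere (difference 77.8 ± 1.03 points, limma adjusted p = 4.12e-28). DSE testis replicate 2 held the highest of the 6 testis values here. Of the full-length reads of the pair, 74 of 79 in testis were of the isoform with the exon (93.7%, Wilson 95% interval 86.0 to 97.3), and elsewhere 1 of only 3 reads of the pair was. SH3GLB1 averaged 279 TPM in testis and 38.7 TPM in the other glands.

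Other switches changed the beginning of the annotated coding part. ING1 (ENSSSCG00000034818), a chromatin reader of the inhibitor of growth family, has different coding first exons in its 2 main isoforms, at chr11:77270407-77270605 in testis and chr11:77271581-77271716 in the other glands, plus strand. The testis main isoform rose from a median of 2.55% to 63.3% (limma adjusted p = 1.93e-11), and its full-length reads were 8 of 9 in testis and 1 of 10 elsewhere. All bases of both coding stretches are particular to 1 isoform and stand in capitals.
ING1 testis main isoform, coding part of the first exon: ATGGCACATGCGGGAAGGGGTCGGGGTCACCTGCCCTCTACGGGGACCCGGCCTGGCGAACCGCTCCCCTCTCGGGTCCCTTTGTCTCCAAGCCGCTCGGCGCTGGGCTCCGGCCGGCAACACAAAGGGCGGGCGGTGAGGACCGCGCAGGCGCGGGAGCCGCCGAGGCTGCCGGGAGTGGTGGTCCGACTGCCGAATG
ING1 main isoform of the other glands, coding part of the first exon: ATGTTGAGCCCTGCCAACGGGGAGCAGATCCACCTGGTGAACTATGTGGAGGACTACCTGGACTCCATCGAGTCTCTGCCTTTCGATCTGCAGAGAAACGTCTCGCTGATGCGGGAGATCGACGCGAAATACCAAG

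EEF1D (ENSSSCG00000006954) encodes the delta subunit of elongation factor 1, which recharges eEF1A with GTP, and a long form of it is known as a transcription factor of the heat shock response. The testis main isoform has a coding part of 1926 bases against 843, with 1 long internal exon that the other lacks. Its first 120 bases, at chr4:974808-974927 on the plus strand, are given because only the testis isoform holds them.
EEF1D start of the long exon of the testis isoform: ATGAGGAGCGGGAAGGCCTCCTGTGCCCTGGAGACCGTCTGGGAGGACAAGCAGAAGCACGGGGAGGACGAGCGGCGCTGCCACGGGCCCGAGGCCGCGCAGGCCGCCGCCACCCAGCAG

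This long isoform of EEF1D had 20.01%, 57.7% and 65.2% of the gene TPM in testis and at most 1.59% in the 24 others (difference 52.1 ± 3.27 points, limma adjusted p = 3.07e-13). DSE testis replicate 2 held the lowest testis value. Its counterpart fell from a median of 57.4% to 20.3% (limma adjusted p = 8e-05), and this isoform did overlap between the groups. All full-length reads of the EEF1D pair in testis were of the long isoform (Wilson 95% interval 96.5 to 100%), and so was the 1 read elsewhere. No read was matched to the other EEF1D isoform in any library, so the exchange itself could not be read from them. EEF1D as a whole averaged 399.5 TPM in testis and 426 TPM in the others.

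**Figure D3:**
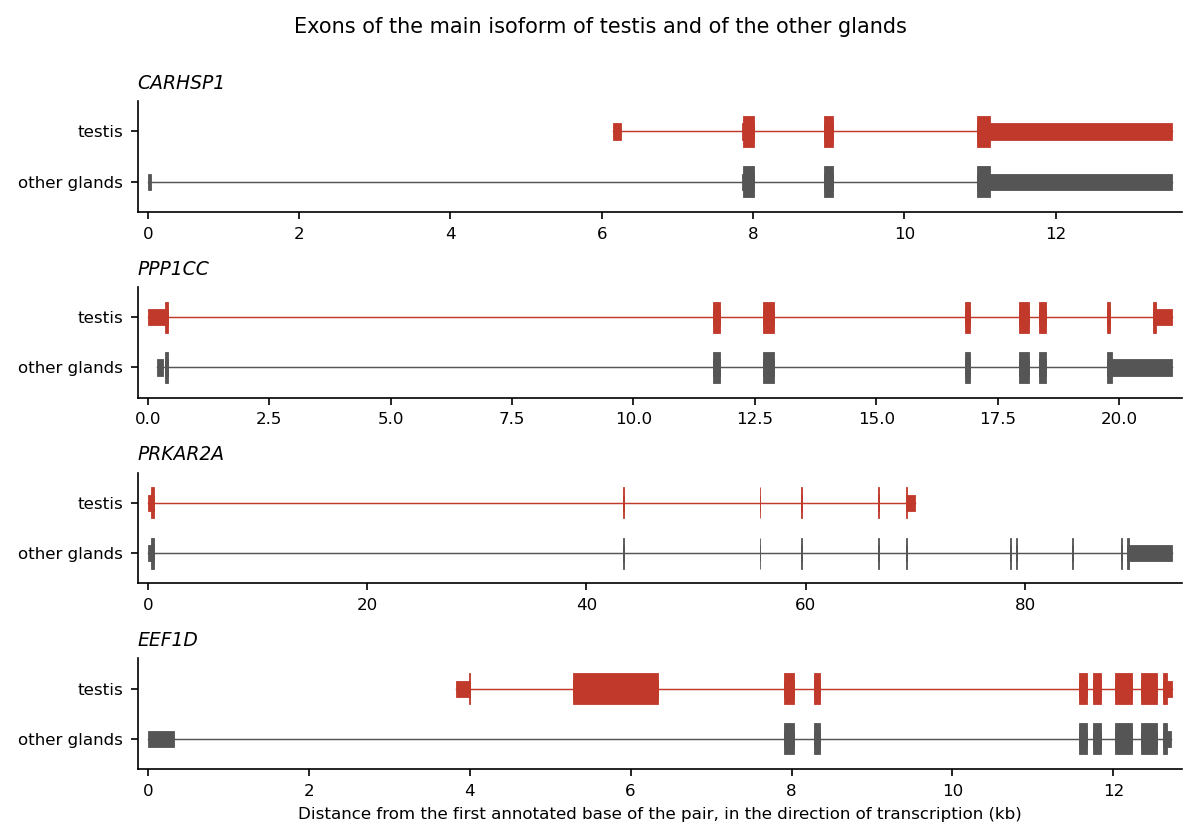
Exons (low boxes) and coding parts (high boxes) of the main isoform of testis (red) and of the other glands (grey) for CARHSP1, PPP1CC, PRKAR2A and EEF1D, drawn to scale in kilobases from the first annotated base. The pairs differ in the first exon (CARHSP1), the retained last intron (PPP1CC), an early end (PRKAR2A), and a first exon with a long coding exon (EEF1D).

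The genes were further described by 12 lists of functions, with 9.64% of all genes called as the level to read them against. Of 13 eligible genes of the list of known testis isoforms, 5 changed the main isoform and 4 were called, PPP1CC, HK1, DNM2 and BAG6. DNM2, which encodes the membrane-severing GTPase dynamin 2, was the weakest of these. Its main isoform of the other glands was listed at 0% in every testis library and at 0% to 66.9% elsewhere (limma adjusted p = 0.0341), and the call was lost, at an unchanged difference of -21.4 points, when any 1 of the 6 testis libraries was left out (limma adjusted p at most 0.0616) or with no filter on transcripts (limma adjusted p = 0.0513). It was also lost within BMI at -21.1 points (limma adjusted p = 0.109) and within DSE at -21.6 points (limma adjusted p = 0.238). BAG6, a chaperone of membrane protein targeting that is needed in male meiosis, spread over 73 transcripts. Its testis main isoform had 17.2%, 26.7% and 33.2% in testis and 0%, 9.98% and 19.1% elsewhere (limma adjusted p = 7.52e-06), and the 2 main isoforms of BAG6 differ in both first and last exon. Full-length reads did not show the exchange in DNM2 or BAG6, since 596 of 596 reads of the DNM2 pair in testis and 291 of 293 elsewhere, and all 1108 and 109 reads of the BAG6 pair, were of the testis main isoform.

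Genes of ubiquitin conjugation and the proteasome held 6 called switches among 71 eligible genes. UBE2J1 and UBE2J2, which encode ubiquitin-conjugating enzymes of the endoplasmic reticulum, both switched to an isoform with an earlier end. In UBE2J1 the testis main isoform had 68.5%, 83.7% and 85.2% in testis and 11.9%, 31.5% and 38.4% elsewhere (limma adjusted p = 3.28e-12), with 272 bases after the stop codon against 3540. Only 2 of 195 full-length reads of the UBE2J1 pair in testis were of that isoform. In UBE2J2 the shares overlapped, with 63.9%, 89.8% and 93.0% for the testis main isoform in testis and 0%, 35.8% and 68.9% elsewhere (limma adjusted p = 1.58e-08). That isoform had 361 bases after the stop codon against 1010, and 20 of 20 full-length reads in testis against 0 of 12 elsewhere were of it. The other 4 were RNF4, CUL1, CUL4B and PSME3, a ubiquitin ligase, 2 cullin scaffolds of ligases and a proteasome activator, and each changed its first exon.

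Membrane traffic had 11 called switches among 74 eligible genes. VPS26A, a subunit of the retromer that returns receptors from endosomes, had a testis main isoform at 56.8%, 70.5% and 76.2% in testis and at 0%, 1.996% and 10.8% elsewhere (limma adjusted p = 1.62e-19). It has 1083 coding bases against 984, but 0 of 87 full-length reads of the pair in testis were of it. AP2B1, the beta subunit of the clathrin adaptor AP-2, kept its coding part and had 442 bases after the stop codon against 2488. Its testis main isoform had 29.6%, 44.1% and 51.2% in testis and 0%, 7.09% and 39.9% elsewhere, with overlap (limma adjusted p = 1.55e-07). Of the full-length reads of the AP2B1 pair, 3 of 3088 in testis and 0 of 1197 elsewhere were of that isoform. For VPS26A, UBE2J1, PRKAR2A and AP2B1 the RNA-seq shares and the full-length reads therefore differed. SEC24D, a cargo adaptor of COPII vesicles, rose from a median of 0% to 46.3%, with 7.93% in DSE testis replicate 2 (limma adjusted p = 2.12e-08). The fall of the other SEC24D isoform missed the threshold within DSE alone at -16.2 points, against -32.0 in both breeds (limma adjusted p = 0.209).

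Kinases and phosphatases had 10 called switches among 55 eligible genes (PPP1CC, PRKAR2A, CLK2, MARK2, CSNK1D, GSK3B, CDK16, MAPK14, CSNK1A1 and MAP4K4). CLK2, a kinase of splicing factors, changed its first exon and not its coding part, and its testis main isoform had a mean of 49.3% in testis and was listed at 0% elsewhere. Chromatin and transcription genes had 8 among 60. These included BRD2 and BRD3, which bind acetylated histones. The testis main isoform of BRD3 rose from a median of 0.172% to 42.4% (limma adjusted p = 7.81e-14), with 681 bases after the stop codon against 3255. For BRD2 it went from a mean of 0.721% to 53.3%.

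Genes that make or read RNA were also called. In the list of mRNA 3′ end formation, export and decay, 5 of 24 eligible genes were called switches, SYMPK, CSTF3, PCF11, NXF1 and PAPOLA. CSTF3, a subunit of the cleavage stimulation factor, is known for a truncated form that ends in an early intron. Its main isoform in the other glands has 312 coding bases, and that isoform had 38.3%, 59.8% and 86.0% there and 19.5%, 35.6% and 47.5% in testis (limma adjusted p = 2.47e-06). The testis main isoform of CSTF3 has 1857 coding bases and rose from a median of 27.4% to 50.3% (limma adjusted p = 1.79e-05), with overlap between the groups. All 86 full-length reads of the CSTF3 pair in testis and all 128 elsewhere were of the longer isoform. For SYMPK, the scaffold symplekin of the cleavage complex, the 2 main isoforms are annotated at separate stretches and share no base. On the minus strand of chr6, the testis isoform has 20 exons at 52139411-52165233 and the other has 2 exons at 52196710-52199228. Whether both stretches belong to 1 gene was not tested, so the SYMPK switch holds only under this annotation. The testis isoform rose from a median of 0% to 65.4% (limma adjusted p = 1.57e-13). Of 50 eligible splicing regulators, 4 were called, CELF1, RBM4, MBNL1 and MATR3. CELF1, which binds GU-rich elements, ended at chr2:15148052 in testis and at chr2:15154394 elsewhere, and the testis isoform had 30.6%, 42.5% and 46.5% in testis against 0%, 13.0% and 33.6% elsewhere (limma adjusted p = 3.76e-06). Full-length reads gave 9 of 46 in testis and 27 of 105 elsewhere for that CELF1 isoform. RBM4 rose from a median of 0% to 26.1% for its testis main isoform (limma adjusted p = 7.5e-05), and it was listed at 0% in 1 testis library. None of the full-length reads of the RBM4 pair came from testis, all 5 elsewhere were of the testis main isoform, and among isoforms with full-length reads alone the call was lost at a difference of 21.4 points, against 20.2 points over all isoforms (limma adjusted p = 0.104).

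Translation genes had 6 called switches among 53 (PAIP1, EEF1D, LARP1, EIF4H, EIF4G1 and EIF4G2). PAIP1, which binds the poly(A)-binding protein, had another first exon and 339 coding bases fewer in testis. That isoform of PAIP1 had 22.5%, 46.9% and 60.4% in testis and at most 5.92% elsewhere (limma adjusted p = 5.44e-14), and full-length reads gave 191 of 232 in testis against 35 of 304 elsewhere. Among genes of cilia, centrosomes and microtubules it was 1 of 27, MAP7, a microtubule-binding protein, whose testis main isoform had 22.3% to 36.4% in testis and at most 7.97% elsewhere (limma adjusted p = 7.94e-17). Full-length reads did not show the exchange in MAP7, since 1 of 1 read of the pair in testis and 26 of 26 elsewhere were of the testis main isoform. Within DSE alone the fall of the other MAP7 isoform missed the threshold at a difference of -13.5 points, against -14.1 points in both breeds (limma adjusted p = 0.0979).

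Of the 16 eligible genes in the list of epithelial splice switches, 10 changed the main isoform and 7 were called (UAP1, CLSTN1, DNM2, NF2, CTNND1, TJP1 and NUMB). The list holds genes, and their changes were not matched to known epithelial splice events. In CLSTN1 and DNM2 the first exon differed and internal splicing did not. Epithelial markers differed between the groups as given above. UAP1, which makes UDP-N-acetylglucosamine, lost an internal exon in testis, with a testis main isoform at 60.7%, 65.2% and 67.5% there and at 10.7%, 22.9% and 47.7% elsewhere (limma adjusted p = 6.34e-10). The testis main isoform of CLSTN1, a calsyntenin of vesicle transport, was listed at 0% in all 24 others and had 9.24%, 42.7% and 49.8% in testis (limma adjusted p = 1.55e-09). CLSTN1 reads were 59 of 109 in testis and 1 of 707 elsewhere. On log ratios with a pseudocount of 0.1, the fall of the other CLSTN1 isoform missed the threshold (limma adjusted p = 0.131), at an unchanged -24.1 points. The fall also missed the threshold within DSE alone, at -18.5 points against -24.1 in both breeds (limma adjusted p = 0.212). In the list of smooth muscle and actin cytoskeleton, 4 of 31 were called, MYH14, LMO7, PDLIM7 and ATP2A2. MYH14, a nonmuscle myosin heavy chain, changed its first exon and overlapped widely, with 59.2% to 100% in testis and 0% to 83.9% elsewhere (limma adjusted p = 1.07e-05). LMO7, a LIM domain protein of cell junctions, had a testis isoform at 20.9% to 55.0% that was listed at 0% elsewhere (limma adjusted p = 1.76e-11). Within DSE alone the fall of the other isoform missed the threshold in MYH14 at -37.2 points, against -39.7 in both breeds (limma adjusted p = 0.110), and in LMO7 at -30.8 points, against -32.6 (limma adjusted p = 0.0758).

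Across the 422 called switches, the first exon differed in 226, internal splicing in 268 and the last exon in 83, and 1 gene can count under more than 1. Both isoforms have an annotated coding part in 406 genes, and in 96 of these it is the same. The coding part was shorter in testis in 160 genes and longer in 148. The stretch after the stop codon was shorter in testis in 189 genes, longer in 98 and equal in 119, with a median of 732 bases for the testis main isoforms and 1202 for the others. Where the last exon was shared but the ends lay at least 100 bases apart, testis ended earlier in 57 of 78 genes. Where the last exon differed, testis ended earlier in 41 of 83. The last exon of the other glands' isoform ran on from a shared exon into an intron that the testis isoform removed in 66 genes, and the reverse held in 10. Internal exons held by 1 isoform alone numbered 139 in the testis isoforms and 81 in the others, with median lengths of 93 and 86 bases, and 12 and 9 of them had 30 bases or fewer. A stop codon over 50 bases before the last exon junction, a position known to mark RNAs for decay, was annotated in 69 testis main isoforms and 41 of the others. Over all 4334 genes the percent of coding TPM in isoforms with such a stop codon was 12.5% in testis and 12.9% in the others (two-sided exact permutation p = 0.155). All these counts rest on the annotation of the pairs that were chosen by their shares.

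The length after the stop codon was also lower in testis over all genes. In each library, the mean length after the stop codon, weighted by share, was taken per gene, and the median over 4334 genes was compared. It was 797 to 817 bases in the 6 testis libraries and 842 to 934 bases in the 24 others. The highest of these, DSE epididymis replicate 1 and BMI prostate gland replicate 3, are among the 5 libraries set apart above, whose transcript integrity was mostly low. Without the 5, the other 19 libraries lay at 842 to 882 bases, and the difference was -61.9 bases (exact permutation p = 5.65e-06). The groups did not overlap, with DSE testis replicate 2 the highest testis library, and the difference of means was 66.6 bases lower in testis (two-sided exact permutation test, p = 1.68e-06, the smallest that 593775 splits can give, adjusted p = 8.42e-06 over 5 measures). Against each of the 4 other glands, 6 libraries against 6, the exact permutation p was 0.00216, the smallest such a split can give. In the 1742 genes whose mean TPM differed by under 1.5 times between testis and the others, it was 54.7 bases lower. The 2 testis Iso-seq libraries had 1404 and 1406 bases by full-length reads over 1207 genes, below the 1422 to 1499 of the 8 others (exact permutation p = 0.0222, the smallest that 45 splits can give). Whole isoforms were 46.9 bases shorter in testis (exact permutation p = 5.05e-06, adjusted p = 1.26e-05), but in the Iso-seq libraries that measure overlapped between testis and the others (exact permutation p = 0.133). The coding part differed by 11.2 bases the other way (exact permutation p = 0.0472, adjusted p = 0.0786). In this measure the ends are those of annotated isoforms, so that ends used within 1 annotated isoform are not seen.

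**Figure D4:**
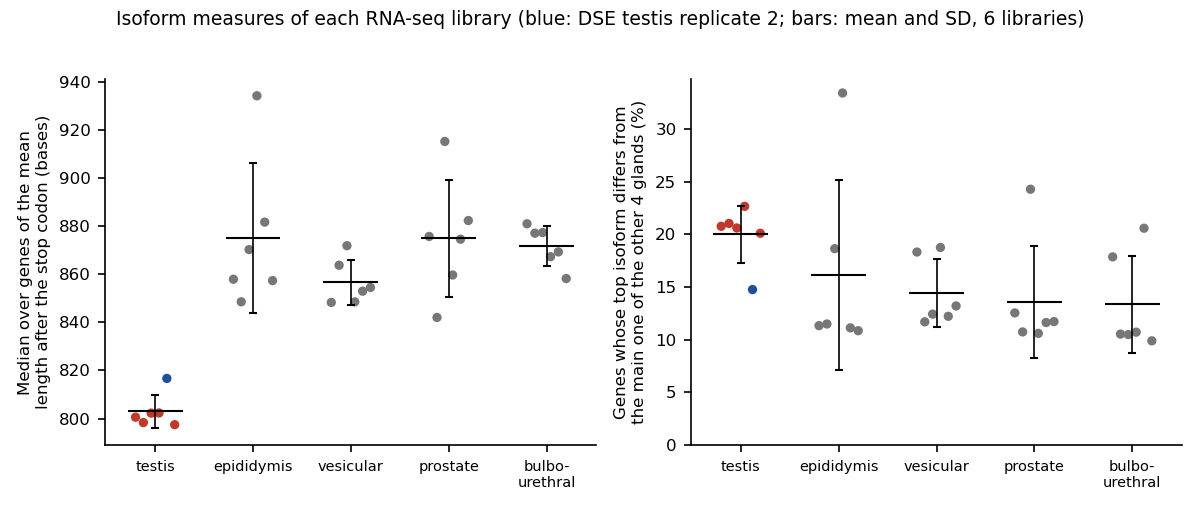
Left, median over genes of the mean length after the stop codon (bases, axis not from 0); right, genes whose top isoform differs from the main isoform of the other 4 glands (percent), for each of the 6 libraries of a gland. Bars give the mean and SD. On the left the testis libraries lie at 797 to 817 bases and all others at 842 or more. On the right DSE testis replicate 2 (blue) is the lowest testis library, at 14.8%, and DSE epididymis replicate 1 is the highest of all, at 33.4%.

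No difference in how far expression was spread over isoforms passed the test, and the direction depended on the setting. The median share of the top isoform was 68.1% ± 0.786 (SD, n = 6) in testis and 68.2% ± 1.15 (SD, n = 24) in the others (two-sided exact permutation p = 0.766). The effective number of isoforms, the exponential of the Shannon entropy of the shares, was 2.23 ± 0.0267 (SD, n = 6) against 2.25 ± 0.0533 (SD, n = 24), with an exact permutation p of 0.343. Both adjusted p over these 2 tests were above the threshold, at 0.766 and 0.687. The difference in effective isoforms was -0.0217, but 0.00887 as a mean over genes and 0.0146 in genes within 1.5 times in TPM (exact permutation p = 0.787 and 0.522). The difference in the share of the top isoform was -0.149 points, and -1.05 points in genes within 1.5 times in TPM (exact permutation p = 0.0824).

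Full-length reads came from other libraries than the shares. Of the 422 called switches, 349 had reads of either main isoform in both testis and the other glands. In testis the testis main isoform had a higher part of the reads of the pair in 224 of the 349 (64.2%), a lower one in 43 and an equal one in 82. The equal ones include pairs such as LDHA and PPP1CC, in which only 1 of the 2 isoforms had matched reads. The median part of the testis main isoform was 71.4% in testis and 1.84% elsewhere, and the isoform with the majority changed in 129 genes. In 309 genes with reads in both testis Iso-seq libraries, the part was higher in both than in the other glands together in 169 and lower in both in 21. No read of the testis main isoform was found in testis in 95 of the 422 genes.

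The testis difference was also compared between the breeds. Of all transcripts fitted, 293 (1.54%) differed between BMI and DSE in the testis difference (limma interaction, adjusted p below 0.05), and among the 844 main isoforms of called switches it was 35 (4.15%), of which 31 had the smaller difference in DSE. DSE testis replicate 2 is 1 of the 3 DSE testis libraries. The count of 293 was 338 without that library, 516 without DSE testis replicate 1 and 450 without DSE testis replicate 3. Among the named testis main isoforms 4 differed, ANXA4 by 33.4 points (limma adjusted p = 0.0031), SEC24D by 43.2 points (limma adjusted p = 2.57e-07), SYMPK by 27.0 points (limma adjusted p = 0.00489) and CLSTN1 by 23.2 points (limma adjusted p = 0.0139), each with the larger difference in BMI. Gene TPM was higher in testis than elsewhere in 296 of the 422 called switches (70.1%), against 2405 of all 4379 genes (54.9%), and 125 of the 422 were within 1.5 times.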

How the data were processed

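The deposited RNA-seq table gives TPM for each transcript, estimated by the authors with salmon against a merged annotation of Ensembl release 107 and their Iso-seq isoforms on Sscrofa11.1. The study's supplement states the reads of each RNA-seq library, which were not used here, and TPM does not give the reads behind a single isoform, so an isoform at 0 can be a failed estimate. The labels speak of rRNA depletion and the study's methods of poly-T beads. The long-read table holds raw full-length read counts for each isoform, as the authors deposited it. Per the submitters' processing notes the tools included STAR 2.7.10a and Salmon 1.9.0.

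Genes, groups, lists and named genes were chosen with earlier results of these data known. Genes with 2 or more transcripts and 5 TPM in all 30 libraries entered. No 2 transcripts of such a gene shared all introns. Shares of transcripts that reached 5% in 3 or more libraries entered limma 3.58.1 (trend, empirical Bayes, Benjamini-Hochberg adjustment), with 5 gland means and breed, testis against the mean of the other 4 glands. Calls needed an adjusted p below 0.05 and a difference of at least 10 points. Medians per library were compared by exact permutation over all splits. Intervals are Wilson 95% intervals and cover counting error only. Lists were typed from general knowledge. Named genes are the 10 called switches of largest size with a symbol and no overlap of libraries, up to 2 further ones for each list, and the called known testis isoforms. Other list members are given as counts or by name, chosen after their values were seen where a value is given. Full-length reads were matched to annotated transcripts for 82.9% of reads. Sequences were read from the RefSeq copy of Sscrofa11.1, in which 98.7% of 9412 introns of main isoforms had GT or GC and AG ends.

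On simulated shares over 4379 genes for testis against the other 4 glands, a planted shift of 0.2 was recovered in 80% of 50 genes, 0.3 in 90%, 0.4 in 100% and 0.5 in 98%, with 0 calls among 16801 other transcripts. Shifts were planted only where the top isoform had a mean share of 0.5 or more, so genes with more spread shares were not tried. Recovery meant that both isoforms of the planted pair were called. Differences among the other 4 glands were left out of the simulated shares. Alternatives were other minimum TPM, no filter, log ratios, isoforms with full-length reads, sums over intron chains or coding parts, 2 groups, a replicate block, single breeds and leaving out libraries. Software was R 4.3.3 and Python 3.11.15 with scipy 1.17.1. miRNA values were not used here.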

Additional observations from a re-analysis of the deposited data

Results flagged for a closer look

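In the 33 named genes, 66 groups of 6 testis libraries were checked for a library far from the rest (Dixon's 95% critical value, which chance passes in about 1 in 20 groups), and 32 had one, of which 29 were in DSE testis replicate 2. In that library the testis main isoform stood at 93.6% for CARHSP1, 96.1% for ARL1, 49.6% for LSM2, 56.8% for VPS26A, 36.5% for LDHA and 32.6% for AGPAT1. It stood at 68.5% for UBE2J1, 37.9% for ING1, 43.3% for PPP1CC, 0% for PRKAR2A, 15.98% for BRD3, 39.8% for ENO1, 20.01% for EEF1D and 16.4% for DNM2. The main isoform of the other glands stood there at 3.85% for CARHSP1, 49.9% for LSM2, 20.6% for SEMA4B, 41.7% for VPS26A, 62.6% for LDHA, 61.2% for AGPAT1 and 18.4% for LDAF1. It stood at 19.9% for UBE2J1, 48.3% for ING1, 55.0% for PPP1CC, 100% for PRKAR2A, 50.8% for EEF1D, 16.5% for CELF1, 34.6% for CLSTN1 and 2.55% for BAG6. The remaining flags were the main isoform of the other glands of ARL1 in DSE testis replicate 3 (0.565%), of MYH14 in DSE testis replicate 1 (3.001%) and of UAP1 in BMI testis replicate 3 (1.98%).

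DSE testis replicate 2 was also far from the other testis libraries in the length after the stop codon (817 bases), the percent of TPM in Iso-seq isoforms (53.0%) and the percent of genes whose top isoform differed from the main isoform of the other 4 glands (14.8%).

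The testis difference of the testis main isoform differed between breeds in 4 named genes by limma's interaction term, with BMI above DSE by 33.4 points in ANXA4, 43.2 points in SEC24D, 27.0 points in SYMPK and 23.2 points in CLSTN1.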

How the results depend on the processing

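Among the summary results 357 of 381 alternatives stayed within the same side and size, 21 moved and 3 reversed, and of the named isoforms 59 of 66 were called under every setting run and none reversed. The other 7 were 1 isoform each of DNM2, CLSTN1, LMO7, MAP7, MYH14, SEC24D and RBM4. With a minimum of 10 TPM there were 1086 transcripts higher in testis, 850 lower, 215 called switches, 399 changed genes and 37 separated, and with a minimum of 1 TPM 4335, 3331, 1017, 1863 and 176. These settings test 2581 and 8418 genes. A minimum difference of 0.2 left 892 higher and 664 lower. Within DSE alone, 1316 were higher and 870 lower, with 222 switches. Requiring 1 main isoform in each of the other 4 glands left 397 changed genes, and genes within 1.5 times in mean TPM held 125 switches. Leaving out 1 library at a time gave 1918 to 2140 higher, 1457 to 1666 lower, 373 to 462 switches, 758 to 820 changed genes and 67 to 166 separated, the highest without DSE testis replicate 2 except for the transcripts lower in testis (1666 without DSE epididymis replicate 1). Without it and the 5 libraries apart, chosen after seeing the data, 189 were separated. The breed difference ranged from 235 to 516 transcripts, with 516 without DSE testis replicate 1 and 450 without DSE testis replicate 3. The difference in the share of the top isoform ranged from -0.422 to 0.0443 points with 1 library left out, and was -1.05 points within 1.5 times in TPM (exact permutation p = 0.0824) and -1.35 points among isoforms with full-length reads (exact permutation p = 0.117), and that in effective isoforms reversed to 0.00887 as a mean over genes (permutation p = 0.787) and to 0.0146 within 1.5 times in TPM (permutation p = 0.522). The causes were not tested. Replicate numbers were not taken as pairs, since the labels do not tie them to boars and 1 of the 6 correlations of same-numbered deviations was under 0.1 (0.0511, 0.158 and 0.280 in BMI, 0.421, 0.150 and 0.263 in DSE). In 4 of the 6 the same number correlated better than any other, a hint from the data only, and the replicate block gave 427 switches, 2043 higher, 1619 lower and 277 breed differences. The filter on transcripts has no counterpart for the measures per library, so that alternative was not run there. TPM does not give the reads behind an isoform, so no limit of detection was set for a share of 0.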
